A study of Mus musculus with 4 samples.

Results

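Fibrillar collagen transcripts and those of the enzymes and proteins that shape and crosslink the fibril are described here in mouse thigh skeletal muscle. The 10 genes were chosen by name for their known role, with earlier results of these data known. All 10 genes were found by Ensembl identifier among the 40137 gene units of the deposited count tables. They are Col1a1, Col1a2, Col3a1, Col5a1, Col5a2 and Col5a3, which encode collagen chains, P4ha1, Lox and Loxl1, which encode enzymes, and Sparc, which encodes a collagen-binding protein. Libraries of total RNA came from wild-type male mice of the inbred strain C57BL/6J, aged 28 months (3 libraries) or 18 months (1 library), and no treatment was given to either group. Per the series' design text, the sequencing served to test splicing results obtained from the same samples on exon arrays, which were not analysed here. Nothing in the labels ties the libraries to separate animals, so p-values measure the spread between these samples, which may be technical. The fits assume that the lone 18-month sample would vary as much as those at 28 months.

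Fibrillar collagens are made as procollagen chains whose central part repeats glycine followed by a pair of other residues, which lets the chains wind into a triple helix. Collagen I is built from Col1a1 and Col1a2 chains and collagen III from Col3a1 chains alone, while collagen V, a minor partner built from Col5a1, Col5a2 and Col5a3 chains, helps to start fibrils and set their width. Prolyl 4-hydroxylase, whose catalytic subunit is P4ha1, hydroxylates proline in the endoplasmic reticulum and so stabilises the helix. Lox and Loxl1 are secreted copper enzymes that oxidise lysine and thereby start the crosslinks between molecules, Loxl1 being best known for its role in elastic fibres, and Sparc binds collagen outside the cell and influences fibril assembly. In skeletal muscle the collagen chain transcripts come mostly from fibroblasts of the connective tissue sheaths rather than from the fibres.

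The repeat is written in the exons themselves, as 2 coding bins show. A bin is a piece of exon between annotated boundaries and is the unit in which reads were counted. The pair is shown because each was the bin with the smallest exon usage p of its gene, and both lie in the triple helix region. Glycine codons are in capitals in the sequences below, which are from GENCODE release M21 transcripts on GRCm38 and read 5′ to 3′ on the plus strand.
Col1a1 bin 29, chr11:94944355-94944408: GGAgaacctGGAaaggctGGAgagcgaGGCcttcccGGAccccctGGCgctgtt
Col1a2 bin 23, chr6:4518948-4518992: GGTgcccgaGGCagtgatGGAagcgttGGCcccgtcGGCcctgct
Glycine took 6 of the 18 codons in the Col1a1 bin of 54 bases and 5 of the 15 codons in the Col1a2 bin of 45 bases. Exon lengths of 45, 54, 99, 108 or 162 bases made up 41 of 49 inner exons of Col1a1, 43 of 50 of Col1a2, 42 of 49 of Col3a1, 43 of 52 of Col5a2, 45 of 64 of Col5a1 and 47 of 65 of Col5a3. P4ha1 had 1 such exon of 13, and neither Lox nor Loxl1 had any among 5.

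Summed over all bins, the libraries held 67279205 to 76163175 counts at 28 months against 65780464 at 18 months. Muscle fibre markers summed to 73030 to 130632 CPM at 28 months (the depth-normalised read count, scaled between libraries by TMM) and to 80014 CPM at 18 months. The labels' extraction text describes skin epidermis, but 5 keratinocyte markers summed to only 1.01 to 1.12 CPM at 28 months against 0.891 CPM at 18 months, and Krt5 had 0 counts in every library. The 28-month replicate 2 stood apart, with a TMM factor of 1.28 against 0.877 and 0.897 in replicates 1 and 3 and 0.990 at 18 months. Values without it are given beside the comparisons, the spread and the ratios below.

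No collagen or crosslinking gene differed between 28 and 18 months beyond the spread of the 28-month libraries. Of the 10 genes 0 passed the edgeR quasi-likelihood test at a Benjamini-Hochberg adjusted p under 0.05, where 0% of the 15376 units tested passed (0 units, against 753 or 4.9% at an unadjusted p under 0.05). None of the 10 reached an unadjusted p under 0.05, and their adjusted p ran from 0.894 to 0.999. The DESeq2 Wald test called 34 units (0.221%) and limma voom 0, with 0 of the 10 in either. In all 10 genes the 28-month replicate 2 was the highest library, as it was in 32.4% of all units, and the 18-month value lay inside the 28-month range. Among all units the 18-month value lay above that range in 26.4% and below it in 25.4%.

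**Figure D1:**
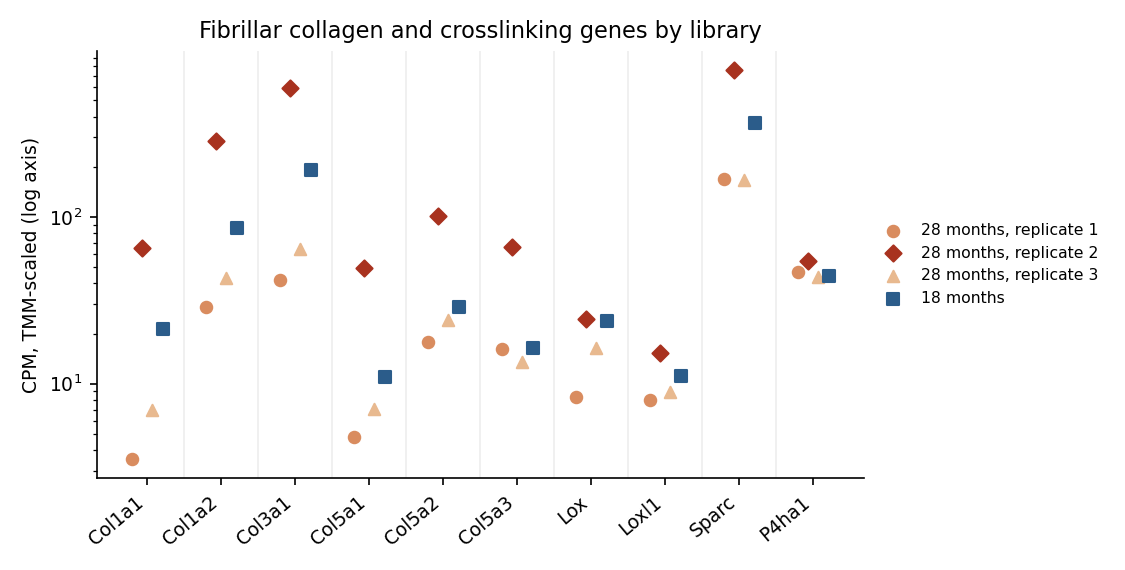
Level of each of the 10 genes in each library, in TMM-scaled CPM on a log axis. Orange and red symbols are the 3 libraries at 28 months and the blue square is the library at 18 months. The red diamond, replicate 2, is the highest symbol for every gene, and the distance between symbols is widest for Col1a1 (3.55 to 65.2 CPM) and narrowest for P4ha1 (43.7 to 54.3 CPM).

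Col1a1 had the widest spread of the 10 genes and Col1a2 shared its order of libraries. Col1a1 (ENSMUSG00000001506, GRCm38 chromosome 11, 94936224 to 94953042, plus strand), the more numerous chain of the collagen I molecule, stood at 3.55 CPM in 28-month replicate 1, 65.2 CPM in replicate 2, 6.94 CPM in replicate 3 and 21.3 CPM in the 18-month library. Values at 28 months follow in this order of replicates throughout. Replicate 2 was thus 18.4-fold above replicate 1 of the same age, and the 18-month library was 4.07-fold above the mean of replicates 1 and 3. The Col1a1 levels rested on 237, 6359, 419 and 1389 counts in the same order. The difference of 28 minus 18 months was 0.24 ± 1.61 on the log2 scale (SE, edgeR adjusted p 0.980). Col1a2 (ENSMUSG00000029661, chromosome 6, 4504814 to 4541544, plus strand), the partner chain of collagen I, stood at 28.7, 284 and 43.3 CPM at 28 months against 85.4 CPM at 18 months, and the log2 difference was 0.47 ± 1.36 (SE, edgeR adjusted p 0.956). Both chains thus had the order replicate 2, 18 months, replicate 3, replicate 1.

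Collagen III followed the same order. Col3a1 (ENSMUSG00000026043, chromosome 1, 45311538 to 45349706, plus strand), which forms the thin, pliable fibrils of soft tissue, stood at 42.1, 595 and 64.2 CPM at 28 months against 191 CPM at 18 months. Its log2 difference was 0.29 ± 1.54 (SE, edgeR adjusted p 0.976), with replicate 2 14.1-fold above replicate 1. Per kilobase of its longest annotated transcript, Col3a1 was the highest of the 6 collagen genes in every library, at 7.56, 107 and 11.5 CPM per kilobase at 28 months and 34.3 at 18 months. Col1a2 came second in each, at 5.16, 51.3 and 7.79 CPM per kilobase at 28 months and 15.6 at 18 months. Col1a1 and Col5a1 were the 2 lowest at 28 months in replicates 1 and 3, at 0.598 and 0.574 CPM per kilobase in replicate 1 and 1.17 and 0.833 in replicate 3, whereas Col1a1 was the fourth at 18 months, at 3.59 CPM per kilobase after Col5a2 at 4.32.

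Of the collagen V chains, Col5a1 spread about as widely as Col1a2, and Col5a2 and Col5a3 spread less. Col5a1 (ENSMUSG00000026837, chromosome 2, 27886425 to 28039514, plus strand), the chain found in nearly all collagen V molecules, stood at 4.82, 49.6 and 7.01 CPM at 28 months against 10.98 CPM at 18 months. Col5a2 (ENSMUSG00000026042, chromosome 1, 45374321 to 45503282, minus strand), its usual partner and the neighbour of Col3a1 on the chromosome, stood at 17.9, 101 and 24.0 CPM at 28 months against 28.7 CPM at 18 months. For both genes the 18-month library lay above replicates 1 and 3 and well below replicate 2. Col5a3 (ENSMUSG00000004098, chromosome 9, 20770050 to 20815067, minus strand), a chain of narrower tissue distribution, stood at 16.2, 66.4 and 13.5 CPM at 28 months against 16.4 CPM at 18 months. Here the 18-month library was close to replicates 1 and 3 and replicate 2 alone was high. Their log2 differences were 0.90 ± 1.42, 0.73 ± 1.07 and 0.96 ± 1.03 (SE, edgeR adjusted p 0.921, 0.914 and 0.894).

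The 3 enzymes spread less than the chains over all 3 libraries at 28 months. P4ha1 (ENSMUSG00000019916, chromosome 10, 59323296 to 59373304, plus strand) stood at 46.5, 54.3 and 43.7 CPM at 28 months against 44.4 CPM at 18 months, and the log2 difference was 0.12 ± 0.27 (SE, edgeR adjusted p 0.948). Replicate 2, the highest, was 1.22-fold above the 18-month library, and the 4 libraries lay close together. Lox (ENSMUSG00000024529, chromosome 18, 52516067 to 52529867, minus strand) stood at 8.32, 24.6 and 16.4 CPM at 28 months against 23.9 CPM at 18 months, and its log2 difference was -0.54 ± 0.58 (SE, edgeR adjusted p 0.895). The 18-month library was close to replicate 2, the highest, and replicate 1 was the lowest. Loxl1 (ENSMUSG00000032334, chromosome 9, 58287738 to 58313186, minus strand) stood at 7.95, 15.4 and 8.98 CPM at 28 months against 11.2 CPM at 18 months, and the log2 difference was -0.05 ± 0.46 (SE, edgeR adjusted p 0.984). Its 4 values kept the order of the collagen I chains within a far narrower range. An antisense transcript overlaps Lox and others overlap Col5a1 in the annotation, and as the strand setting of the counting was not given, reads of the 2 strands cannot be told apart there.

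Sparc (ENSMUSG00000018593, chromosome 11, 55394500 to 55423183, minus strand) stood at 168, 759 and 168 CPM at 28 months against 364 CPM at 18 months. Replicate 3 stood at 0.999 times replicate 1, replicate 2 was 4.52-fold above replicate 1, and the 18-month library was 2.17-fold above the mean of replicates 1 and 3. The log2 difference between ages was 0.00 ± 0.99 (SE, edgeR adjusted p 0.999).

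The spread itself set most of these genes apart from the bulk of the transcriptome as a description of these libraries. The SD of log2 CPM over the 3 libraries at 28 months had a median of 1.30 over the 10 genes and of 0.35 over the 15272 units with counts in each of those libraries. Col1a1 had an SD of 2.20, larger than that of 99.1% of units, Col3a1 2.05 (98.9%), Col5a1 1.81 (98.4%) and Col1a2 1.76 (98.2%). Col5a2, Col5a3 and Sparc had SDs of 1.34, 1.26 and 1.26. Lox had 0.79 (85.7%), Loxl1 0.51 (68.1%) and P4ha1 0.16, larger than that of only 19.2% of units. All collagen chains thus varied more than either crosslinking enzyme over these 3 libraries, and P4ha1 varied least. Most of this spread came with replicate 2. Over replicates 1 and 3 alone the median SD was 0.34, against 0.14 over all units, and the order of the genes changed. Lox then had the largest SD, 0.69 (larger than that of 92.5% of units), followed by Col1a1 at 0.68 (92.3%), while Col3a1 had 0.43, Col5a3 0.18, Loxl1 0.12 and P4ha1 0.06. In 9 of the 10 genes, P4ha1 being the exception, the order was replicate 2, then 18 months, then replicates 1 and 3, an order held by 15.9% of all units.

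The direction depended on the libraries and on the method for most of these genes. With all 4 libraries, limma voom gave negative log2 differences for Col1a1 (-0.75), Col1a2 (-0.32), Col3a1 (-0.77) and Sparc (-0.44) where edgeR gave positive ones, and a median of -0.20 over the 10 genes. Lox stayed negative and P4ha1 positive with each library at 28 months left out in turn. Without 28-month replicate 2, 9 of the 10 log2 differences were negative and 4 genes were lower at 28 months by the edgeR test, where 4.35% of units were called lower and 11.7% in either direction. The fit then took its spread from replicates 1 and 3 alone. Col1a1 was lower by a log2 difference of -2.00 ± 0.37 (SE, edgeR adjusted p 0.0289), Col3a1 by -1.82 ± 0.25 (0.0179), Col1a2 by -1.22 ± 0.26 (0.0364) and Sparc by -1.09 ± 0.13 (0.0155). Under every other setting the adjusted p of these 4 genes was 0.918 to 1.00. Without replicate 1 (0.013% of units called) or without replicate 3 (0.0065%), 0 of the 10 passed. Col5a1 stood at -0.87 ± 0.27 (edgeR adjusted p 0.0910), Lox at -0.92 ± 0.38 (0.160) and P4ha1 at 0.04 ± 0.15 (0.871) without replicate 2. The median log2 difference over the 10 genes moved from 0.27 to -0.89, against 0.06 and 0.03 over all units tested.

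Ratios of 2 genes within a library need no scaling between libraries. There were 8 such ratios. An exact permutation test of 3 libraries against 1 cannot go below p = 0.25, so it could not separate the ages for any of them. The 18-month value lay above the 28-month range for Col1a1 to Col1a2 and below it for Col3a1 to Col1a1 and Col5a2 to Col1a2 (exact permutation p = 0.5 for each, two-sided). For the other ratios it lay inside the range. The ratio of Col1a1 to Col1a2 counts was 0.124, 0.230 and 0.160 in 28-month replicates 1, 2 and 3 and 0.250 at 18 months, the highest of the 4 (exact permutation p = 0.5, two-sided). Per kilobase it was 0.116, 0.214, 0.150 and 0.230, so that Col1a1 was below Col1a2 in every library on either scale. Both scales use all bins, and the position of counts along Col1a1 differed between the libraries, as given below. Col3a1 to Col1a1 was the steadiest ratio, at 11.9, 9.12 and 9.26 at 28 months and 8.95 at 18 months, although Col1a1 itself ranged over 18.4-fold. Col5a1 to Col5a2 was 0.270, 0.490 and 0.292 at 28 months and 0.383 at 18 months, inside the 28-month range. Col5a2 to Col1a2 was 0.623, 0.356 and 0.554 at 28 months and 0.336 at 18 months. Replicate 2 and 18 months, the libraries with the most Col1a2, were the lowest in that ratio, of which Col1a2 is the denominator. The ratio covers the Col5a2 chain alone and not collagen V as a whole.

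Enzyme transcripts per collagen I transcript varied far more than the chain ratios. Lox counts per Col1a1 count were 2.35, 0.377 and 2.37 at 28 months and 1.12 at 18 months. Loxl1 to Col1a1 was 2.24, 0.236 and 1.29 at 28 months and 0.524 at 18 months. P4ha1 to Col1a1 was 13.1, 0.832 and 6.29 at 28 months and 2.08 at 18 months, a 15.7-fold gap between replicates 1 and 2. Sparc to Col1a1 was 47.3, 11.6 and 24.1 at 28 months and 17.0 at 18 months. In each of these 4 ratios replicate 2 was lowest and the 18-month library was second lowest, inside the 28-month range (exact permutation p of 0.75 to 1, two-sided). Col1a1 is the denominator of all 4, and its SD of log2 CPM at 28 months was 2.20. That of Lox was 0.79, of Loxl1 0.51, of P4ha1 0.16 and of Sparc 1.26. The places of replicate 2 and 18 months thus repeat the Col1a1 order in reverse and are not separate results for the 4 ratios. Without replicate 2 the 18-month value lay below both others in all 4, and the log2 difference of 28 minus 18 months went from 0.19 to 1.07 for Lox, from 0.75 to 1.70 for Loxl1, from 0.98 to 2.12 for P4ha1 and from 0.47 to 0.99 for Sparc. For the chains it went from -0.59 to -0.83 for Col1a1 to Col1a2, from 0.16 to 0.23 for Col3a1 to Col1a1, from -0.18 to -0.45 for Col5a1 to Col5a2 and from 0.57 to 0.81 for Col5a2 to Col1a2.

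**Figure D2:**
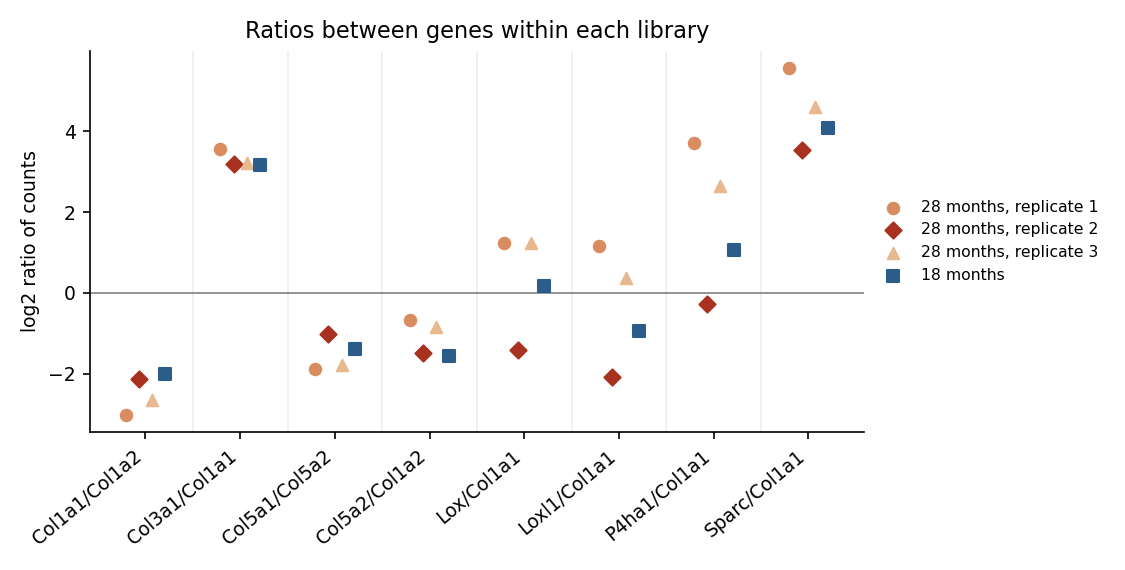
The log2 ratio of counts of 2 genes within each library, for 8 ratios. Symbols stand for the libraries as labelled, and the line marks equal counts. Col3a1 to Col1a1 has the narrowest spread at 28 months (9.12 to 11.9 before logs), and P4ha1 to Col1a1 the widest (0.832 to 13.1).

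Most fibroblast markers, though not all, were highest in the library where the collagen genes were. In bulk tissue, fewer cells of a type and less RNA per cell cannot be told apart. The 9 fibroblast markers, all of them tested, summed to 1580, 4717 and 1814 CPM at 28 months against 2032 CPM at 18 months. Replicate 2 was the highest library for 7 of them, against 32.4% of all units. The order replicate 2, then 18 months, then replicates 1 and 3 was held by 6 of the 9, against 15.9% of all units. Most of that sum was Gsn, a gene that muscle fibres and other cells also express (1324, 3967, 1480 and 1446 CPM). Gsn did not hold that order. Dpt, a matrix protein of fibroblasts, stood at 80.1, 320 and 94.3 CPM at 28 months against 242 CPM at 18 months, in the order of the collagen I chains. Ly6a was highest at 18 months, at 46.6, 59.6 and 50.8 CPM at 28 months against 75.8 CPM. The part of the fibroblast markers in the collagen result was not tested. As log2 ratios to the summed fibroblast marker counts, 9 of the 10 genes had a narrower range over the 4 libraries than in CPM, Col1a1 going from 4.20 to 2.62 and Col5a2 from 2.50 to 0.92, while P4ha1 went from 0.31 to 1.36. The 18-month ratio lay inside the 28-month range for 7 genes and above it for Lox, Loxl1 and Sparc. For Lox the difference of 28 minus 18 months was -0.90 in this log2 ratio (exact permutation p = 0.25, two-sided, the smallest possible). Without replicate 2 it was -0.77 for Lox, and for Col1a1 it was -1.84 against -1.09 with it. With Gsn left out of the markers, an alternative added after the data were seen, the Lox ratio lay inside the range (-0.12) and the ratios of Col5a1, Col5a2, Col5a3 and Loxl1 at 18 months lay below it.

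Some markers of other cell types shared this order of libraries and others did not. Macrophage markers (7 of 7 tested) summed to 88.1, 205 and 180 CPM at 28 months against 62.7 CPM at 18 months, with replicate 2 highest for 3 of the 7. Schwann cell markers (6 of 6) summed to 183, 96.0 and 149 CPM at 28 months against 324 CPM at 18 months. Endothelial markers (5 of 5) summed to 169, 341 and 200 CPM at 28 months against 227 CPM at 18 months, in the order of the collagen I chains. Tendon markers (7 of 7), of a tissue rich in collagen I, summed to 83.8, 61.9 and 66.9 CPM at 28 months against 64.5 CPM at 18 months and were not highest where the collagens were. Of 7 bone and cartilage markers only Alpl and Phex were tested, the sum was 6.27, 10.5 and 4.77 CPM at 28 months against 7.06 CPM at 18 months, and Acan had 0 counts in every library. Smooth muscle and pericyte markers (6 of 6) summed to 242, 352 and 238 CPM at 28 months against 337 CPM at 18 months. In the sums of these last 2 lists too, replicate 2 was highest and the 18-month library second. Taken singly, that order was held by 2 of the 6 smooth muscle and pericyte markers and 3 of the 5 endothelial markers, against 15.9% of all units. Rgs5, the most abundant smooth muscle and pericyte marker, was highest at 18 months, at 88.1, 182 and 94.7 CPM at 28 months against 195 CPM. Adipocyte markers (5 of 5) summed to 4212, 4578 and 3617 CPM at 28 months against 3217 CPM at 18 months. The part of any of these in the collagen values was not tested.

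**Figure D3:**
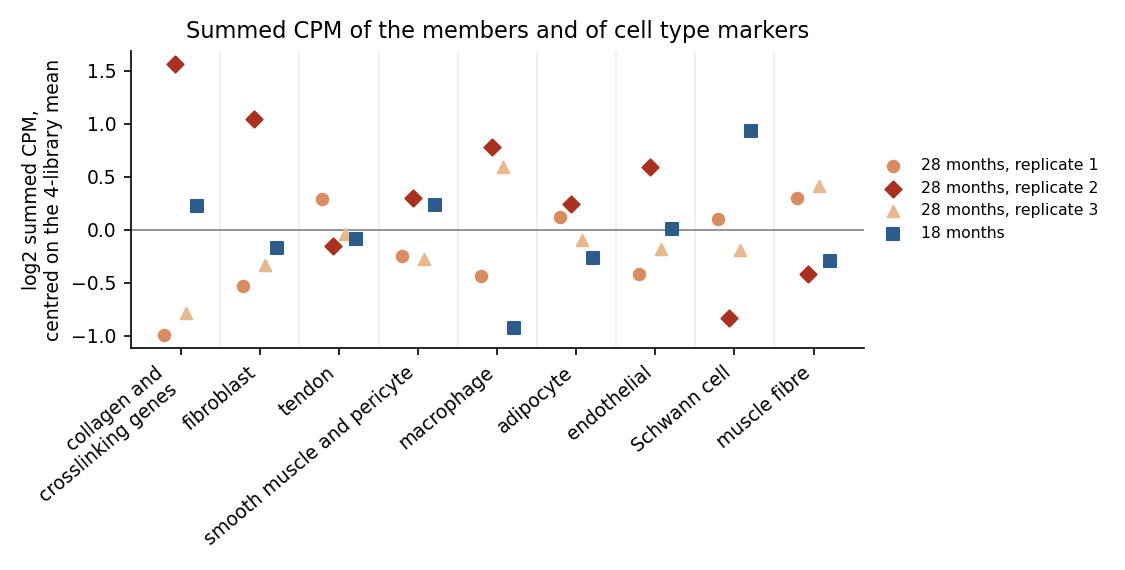
Summed CPM of the 10 genes and of 8 marker lists, on a log2 scale centred on the mean of the 4 libraries for each list. Symbols stand for the libraries as labelled. The 10 genes and the fibroblast markers are both highest in replicate 2 (1.56 and 1.04 above their means), as are macrophage (0.78), endothelial (0.59), smooth muscle and pericyte (0.29) and adipocyte markers (0.24). Muscle fibre markers (-0.42) and Schwann cell markers (-0.83) are lowest there. These are sums. Taken singly, replicate 2 was highest for 3 of 7 macrophage, 5 of 5 endothelial, 3 of 6 smooth muscle and pericyte and 4 of 5 adipocyte markers.

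The rest of the collagen pathway was measured around these genes, and 0 of its 62 tested genes passed the edgeR test on all 4 libraries, with 1 at an unadjusted p under 0.05 (Ltbp3, higher, named after its values were seen) and 0 by DESeq2 or limma voom. Without replicate 2, 6 of the 62 were called, where 11.7% of all units were. Hydroxylation, glycosylation and folding genes (17 of 18 tested) had 12 positive and 5 negative log2 differences, with a median of 0.14. P4hb, the partner subunit of P4ha1, stood at 478, 299 and 487 CPM at 28 months against 361 CPM at 18 months, lowest in replicate 2 where the chains were highest. Serpinh1, the collagen chaperone of the endoplasmic reticulum, stood at 27.8, 74.1 and 21.6 CPM at 28 months against 39.7 CPM at 18 months, with replicate 2 highest and the 18-month library next, as for the chains. Ppib, a prolyl isomerase that acts on collagen, stood at 56.2, 52.4 and 58.8 CPM against 36.6 CPM at 18 months (log2 difference 0.61 ± 0.26, SE, edgeR adjusted p 0.859), with no overlap between the ages. Among all units, 25.4% likewise had the 18-month value below all values at 28 months. Without replicate 2 the log2 difference of Ppib was 0.68.

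Among the other lysyl oxidases (3 of 3 tested, all negative), Loxl2 stood at 2.05, 12.7 and 2.34 CPM at 28 months against 11.4 CPM at 18 months. Without replicate 2 it was lower at 28 months by a log2 difference of -2.36 (edgeR adjusted p 0.0143). Of 7 procollagen processing genes 5 had positive log2 differences. Bmp1, the protease that removes the C-terminal propeptide, stood at 5.67, 30.9 and 8.65 CPM at 28 months against 10.3 CPM at 18 months, and Adamts2, which removes the N-terminal one, at 7.71, 25.5, 8.78 and 12.1 CPM in the same order. Both had replicate 2 highest and the 18-month library second, an order held by 3 of these 7 genes. Pcolce, an enhancer of Bmp1 and the most abundant of the list, did not hold it, at 37.7, 63.5 and 41.4 CPM at 28 months against 40.4 CPM at 18 months, nor did its relative Pcolce2, at 16.4, 35.8 and 23.8 CPM against 23.6 CPM. Other fibrillar collagens (4 of 5 tested) were scarce and together summed to 2.38 to 4.50 CPM at 28 months against 2.86 CPM at 18 months.

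Fibril surface and matricellular genes (8 of 8 tested) had a median log2 difference of 0.32 and replicate 2 highest in 7. Fn1, fibronectin, stood at 42.0, 191 and 75.4 CPM at 28 months against 89.8 CPM at 18 months. Genes of collagen breakdown and its inhibitors (11 of 12 tested) had 8 positive and 3 negative differences. Mmp2, a gelatinase, stood at 22.9, 80.3 and 32.4 CPM at 28 months against 40.3 CPM at 18 months. Timp3, an inhibitor of such proteases, stood at 102, 154 and 95.3 CPM at 28 months against 165 CPM at 18 months, and was lower at 28 months only in the fit without replicate 2 (log2 difference -0.72, edgeR adjusted p 0.0266). TGF-beta signalling genes (12 of 12 tested), which drive collagen transcription, had 4 positive and 8 negative differences with a median of -0.17. Replicate 2 was highest for 4 of these 12. Without replicate 2, Ctgf, a matricellular target of the pathway, was lower at 28 months (log2 difference -1.33, edgeR adjusted p 0.0175), and the latent TGF-beta binding proteins Ltbp2 (1.65, 0.0357) and Ltbp3 (0.73, 0.0348) were higher, all 3 named after their values were seen. Tgfbr1, a receptor, stood at 40.5, 38.5 and 41.4 CPM against 58.2 CPM at 18 months (log2 difference -0.54 ± 0.24, SE, edgeR adjusted p 0.859).

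The genes closest in pattern to the 10 were sought among 6923 named units with a mean of at least 10 CPM, by the root mean square distance of centred log2 CPM over the 4 libraries from the median of the 10. They were Ccdc80 (distance 0.079), Itih5 (0.094), Nedd9 (0.095), Emp1 (0.136), Ntrk2 (0.176) and Col6a1 (0.188). Ccdc80, a secreted matrix protein, stood at 49.4, 287 and 53.2 CPM at 28 months against 93.6 CPM at 18 months. Col6a1, a chain of the beaded-filament collagen VI, stood at 17.4, 99.2 and 27.6 CPM at 28 months against 38.8 CPM at 18 months. Sparc was the nearest of the 10 to their own median (0.164) and P4ha1 the farthest (0.901).

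Exon usage asks whether a bin takes a different share of its gene's counts at the 2 ages, whatever the gene's level. By the edgeR diffSpliceDGE test with Simes p-values, 0 of the 10 genes passed, where 3.54% of 11000 genes passed, and 0 of their 363 tested bins passed, where 0.366% of all bins did. At an unadjusted p under 0.05 there were 0 genes and 1 bin, the 3′-most bin of P4ha1 (edgeR adjusted p 0.458). P4ha1 had the smallest adjusted p of the 10 (0.725). The gene F-test, which called 30.7% of genes, and limma voom with diffSplice, which called 16%, each called P4ha1 alone among the 10 (adjusted p 2.4e-05 and 0.000525).

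P4ha1 has a pair of mutually exclusive coding exons of 71 bases each, and their sequences are given because the choice between them is the known alternative splicing of this enzyme. Both are on the plus strand of GRCm38, from GENCODE release M21 transcripts, and capitals mark the bases at which the 2 exons differ.
P4ha1 first exon of the pair, chr10:59354340-59354410: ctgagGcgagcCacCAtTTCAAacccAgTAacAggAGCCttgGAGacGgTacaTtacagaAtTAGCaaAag
P4ha1 second exon of the pair, chr10:59355350-59355420: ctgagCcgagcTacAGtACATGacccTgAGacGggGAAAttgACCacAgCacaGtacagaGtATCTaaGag
The exons share 42 of 71 bases (59.2%). The first exon held 76, 124 and 73 counts at 28 months against 78 at 18 months, and the second held 120, 206 and 88 counts at 28 months against 77 at 18 months. As a share of the pair, the first exon took 38.8, 37.6 and 45.3% at 28 months, a mean of 40.6 ± 4.18% (SD, n = 3), and 50.3% at 18 months (exact 95% binomial interval 42.2 to 58.4%). The 18-month share lay above all 3 at 28 months (exact permutation p = 0.25, two-sided, the smallest possible). Its interval nevertheless reached below the share of replicate 3, and neither bin passed the exon usage test (edgeR adjusted p 1.00 for each). Intervals here and below cover counting error only.

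In Col5a1 the annotation has an 84-base extension of an exon (chromosome 2, 28018549 to 28018632) and a next exon of 54 bases (28019937 to 28019990) that no annotated transcript joins. The bin of the extension had 0 counts in all 4 libraries, and that of the 54-base exon had 4, 33 and 4 counts at 28 months against 2 at 18 months. No difference in their use was detectable at this depth.

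The clearest feature of the bins was their 3′ end. Bins could be placed on the annotation for 8 of the 10 genes, not for Lox and Sparc. In 8 of these 8 the 3′-most bin took a larger share of the gene's counts at 18 months than in each library at 28 months, as it did in 78% of 4614 genes measured the same way. Over the 8 genes the 18-month share was a median of 2.41 times the mean share at 28 months, against 1.38 over all 4614 genes. The count of 8 in 8 therefore stands against a background in which most genes went the same way.

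**Figure D4:**
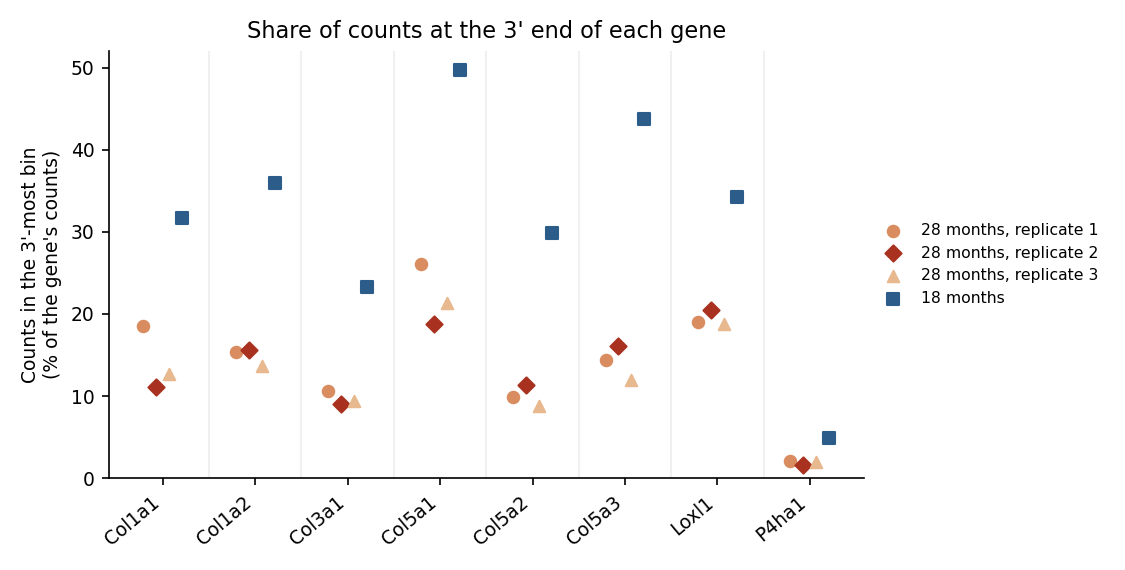
Share of each gene's counts in its 3′-most bin, in percent, by library, for the 8 genes whose bins could be placed. The blue square, 18 months, lies above the 3 symbols at 28 months for every gene, from 4.84% for P4ha1 to 49.7% for Col5a1.

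Among the chains, Col5a3 had the widest gap at this end, with 14.4, 16.1 and 11.9% of its counts in the 3′-most bin at 28 months against 43.7% (exact 95% interval 40.7 to 46.7%). Col5a2 gave 9.89, 11.4 and 8.83% against 29.8% (27.7 to 31.9%). Col1a2 gave 15.4, 15.6 and 13.6% against 35.9% (34.7 to 37.2%), and Col3a1 10.6, 9.05 and 9.36% against 23.2% (22.5 to 24.0%). For Col1a1 the shares were 18.6, 11.1 and 12.6% against 31.7%, and for Col5a1 26.1, 18.8 and 21.3% against 49.7%. Loxl1 had the smallest ratio between the ages, at 19.0, 20.5 and 18.8% against 34.2%. P4ha1 had the smallest share, at 2.12, 1.61 and 2.01% against 4.84% (4.09 to 5.69%). Replicate 2, which stood apart in level, gave shares close to those of replicates 1 and 3 in these genes, Col1a1 and Col5a1 showing the widest gaps.

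The 5′ side of the genes showed the reverse. Col1a2 had 27.9, 26.7 and 27.5% of its counts in the first 36 of 73 bins at 28 months and 13.5% at 18 months. Col3a1 had 28.1, 32.6 and 28.8% in the first 32 of 65 bins against 17.0%, and Col5a2 30.8, 29.6 and 32.4% in the first 30 of 61 against 18.1%. The 18-month share was the lowest of the 4 in 7 of the 8 genes, as it was in 74.9% of the 4614 genes. Col1a1 was the exception, at 9.28, 32.6 and 13.4% at 28 months and 16.1% at 18 months, its replicates 1 and 3 having only 237 and 419 counts. The P4ha1 values were close together, at 42.2, 44.6 and 44.0% against 41.2%.

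**Figure D5:**
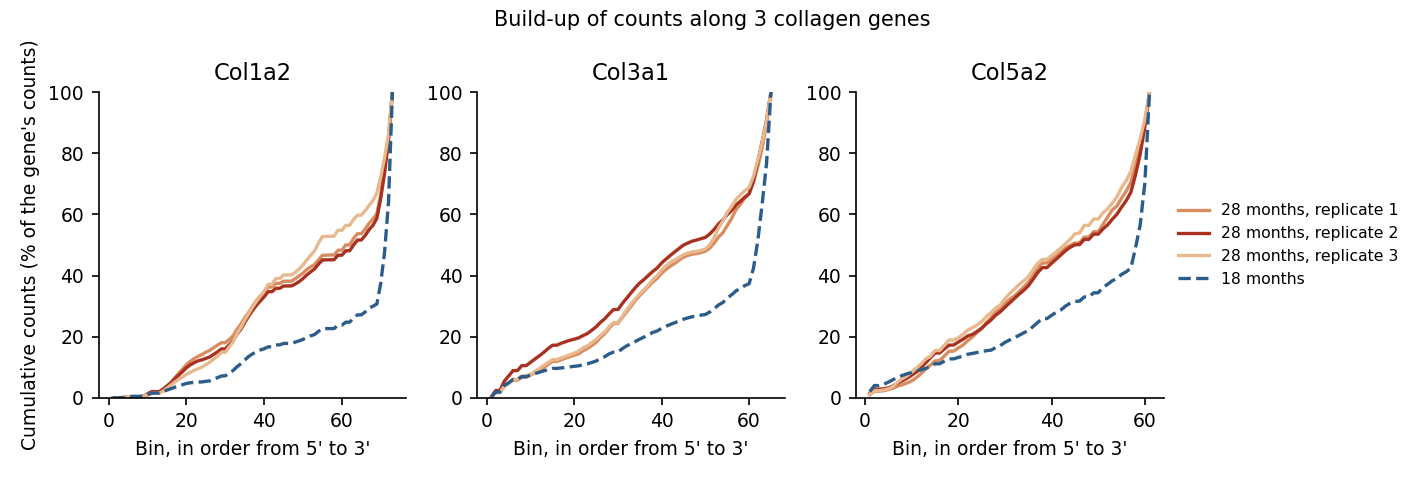
Cumulative share of counts, in percent, along the bins of Col1a2, Col3a1 and Col5a2 in order from the 5′ to the 3′ end. Solid lines are the 3 libraries at 28 months and the dashed line is 18 months. The dashed line runs below the others through most of each gene and makes up the gap in the last bins, where 35.9, 23.2 and 29.8% of the 18-month counts fall in the final one.

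In 4 of the 6 chain genes the bin with the smallest p held few counts at 18 months, while in Col5a2 and Col5a3 it was the 3′-most bin described above. The Col1a1 bin printed above had 1, 62 and 0 counts at 28 months against 0 at 18 months, or 0.422, 1.00 and 0% of the gene's counts in tested bins. The count of 0 at 18 months allows a share of up to 0.218%, taking 3 counts of the total as the limit, and replicate 3 also had 0. The Col1a2 bin printed above had 14, 165 and 13 counts at 28 months, or 0.735, 0.597 and 0.499% of the gene, and 4 counts or 0.0722% at 18 months (exact 95% interval 0.0197 to 0.185%). Col5a1 bin 10 of 42 coding bases had 3, 70 and 9 counts, or 1.03, 1.63 and 2.44%, against 0 at 18 months, which allows up to 0.439% by the same limit of 3 counts. Col3a1 bin 17 had 15, 370 and 21 counts, or 0.534, 0.638 and 0.542%, against 18 counts or 0.145% (0.0859 to 0.229%). None of these bins passed (edgeR adjusted p 1.00 for each).

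Without 28-month replicate 2 the same test called 30% of all genes and 6.85% of all bins, and 5 of the 10 genes: Col5a2, Col5a3, Loxl1, Sparc and P4ha1 (edgeR adjusted p 1.27e-05, 1e-06, 0.0437, 2.98e-07 and 0.00917). Over the 10 genes 27 of 363 bins (7.44%) were called, 18 with a larger and 9 with a smaller share at 28 months. The 3′-most bin was among those with a smaller share at 28 months in 7 of the 8 placed genes, Col1a1 being the exception. Those with a larger share included 4 bins of 45 or 54 bases in Col5a3. One of them, bin 45, had 8, 36 and 7 counts at 28 months against 0 at 18 months. Sparc, whose bins could not be placed, had 9 called bins, all with a larger share at 28 months, of which bin 13 took 2.93, 2.51 and 3.04% of its counts at 28 months against 0.902% (exact 95% interval 0.785 to 1.03%). Without replicate 1 (2.05% of genes called) or without replicate 3 (1.49%), 0 of the 10 genes and 0 of their bins passed.

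The position of counts along the gene also touched the chain ratios. From the 3′-most bin alone, an alternative added after the data were seen, the log2 difference of 28 minus 18 months in Col5a1 to Col5a2 was 0.21, against -0.18 from all bins, and in Col5a2 to Col1a2 it was 0.26 against 0.57. In Col1a1 to Col1a2 it was -0.52 against -0.59, and in Col3a1 to Col1a1 0.09 against 0.16. The 3′-most bin of Col1a1 held 44, 708 and 53 counts at 28 months and 440 at 18 months. That of Col1a2 held 294, 4324 and 356 counts at 28 months and 1999 at 18 months. The part of the uneven 3′ share in the gene levels was not tested.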

How the data were processed

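Total RNA of 4 libraries was sequenced. The submitters' processing notes name bcl2fastq 1.8.3, TopHat2 2.0.4 and the build GRCm38. The deposited files hold raw counts per exonic bin, as the authors made them, 1 file per library. Which counter, annotation release and strand setting were used is not given in the sources used here. A fragment that spans several bins may count in each, so a gene's sum is not a number of fragments. The 5 special entries, which name no gene and held 3.36 to 5.20% of all counts in a file, were left out. No 2 libraries were duplicates.

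Bins were summed per gene unit, and those averaging at least 10 counts were tested with edgeR 4.0.16 (quasi-likelihood test, TMM scaling) in R 4.3.3, with Benjamini-Hochberg adjustment over 15376 units. Exon usage was tested with diffSpliceDGE on bins averaging at least 10 counts, and p-values per gene were Simes values. Ratios were tested by exact permutation. Alternatives used DESeq2 1.42.0, limma 3.58.1, other scalings and filters, and left out each 28-month library. Bins were placed where their number equalled that of the flattened GENCODE M21 annotation and no bin under 10 bases held over 5% of the counts, which an equal number alone does not prove right. The 3′ share was taken over placed genes averaging at least 100 counts. The gene and bin tests were tested on simulated data. Figures were drawn with matplotlib 3.10.9.

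The members and gene lists were chosen with earlier results of these data known. Named beside the 10 genes were up to 4 of the most abundant genes of each list, the 6 nearest in pattern, and each gene's bin with the smallest p. Some genes within the rule are left out of the text.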

Additional observations from a re-analysis of the deposited data

How the results depend on the processing

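No paired analysis was possible because there is a single 18-month library and no label pairs it with a library at 28 months. Units called for expression numbered 0 in edgeR on all 4 libraries, 34 by DESeq2, and 1 to 1806 with 1 library at 28 months left out. Genes called for exon usage numbered 389, against 3375 by the gene F-test, 1765 by limma voom, 206 without first and last bins and 164 to 3299 with 1 library left out. With 1 library left out, the log2 difference ran from -2.00 to 0.76 for Col1a1, -1.22 to 0.94 for Col1a2, -1.82 to 0.79 for Col3a1, -0.87 to 1.37 for Col5a1, -0.43 to 1.13 for Col5a2, -0.13 to 1.33 for Col5a3, -0.38 to 0.12 for Loxl1 and -1.09 to 0.35 for Sparc. The low end of each came without 28-month replicate 2. By limma voom the difference was -0.75 for Col1a1, -0.32 for Col1a2, -0.77 for Col3a1 and -0.44 for Sparc. From the median count per bin, the log2 ratio difference was 0.60 for Col5a1 to Col5a2 (-0.18 from sums) and 0.12 for Col5a2 to Col1a2 (0.57 from sums). The difference of 28 minus 18 months in the median log2 ratio of the 10 genes to fibroblast markers was -0.13. It was 0.37 with Pdgfra alone and, added after the data were seen, 0.65 with the markers without Gsn. The median SD of log2 CPM over the 10 genes at 28 months was 1.30 and, without replicate 2 (also added after the data were seen), 0.34. The cause of these changes was not tested. Low totals, such as 237 counts of Col1a1, 322 of Col5a1 and 531 of Loxl1 in 28-month replicate 1, limit single-bin shares.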
